A study of Homo sapiens with 15 samples.

Results

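In 652812 windows of 1 kb that were highly methylated at the start, 12 windows kept their DNA methylation within 0.15 of the starting level after both UHRF1 knockdown and DNMT1 knockdown. The autosomes of hg38 were divided from position 1 into non-overlapping windows, and 2734996 of these held at least 1 CpG. The methylation level (mC) of a window was the number of methylated reads summed over its CpGs divided by all reads at those CpGs. A read counts once at each CpG it covers, so reads summed over a window are not separate molecules. Of the windows with at least 5 CpGs, 1089323 also had at least 100 reads in every library. The 652812 windows with a Baseline mC of 0.80 or more in all 5 cell populations are called baseline-methylated. Of these, 12 had a Knockdown mC no more than 0.15 (15 percentage points) from Baseline in each of the 5 populations. The 12 windows were thus chosen by their Baseline and Knockdown values, which are given as a description and were not tested.

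The assay was whole-genome bisulfite sequencing, in which a cytosine that is still read as C counts as methylated. The cells were HCT116, a human colorectal carcinoma line, with a stably integrated doxycycline-inducible short hairpin RNA (shRNA) directed at UHRF1 or at DNMT1. UHRF1 was targeted in 3 clones named Cl.3, Cl.6 and Cl.9, and DNMT1 in 2 bulk cultures named R1 and R2. Baseline cells were grown for 14 days without doxycycline, Knockdown cells received 10 ng/mL doxycycline for 14 days, and Recovery cells had 14 days with doxycycline and then 14 days without it (day 28). This gave 3 libraries per stage for shUHRF1 and 2 per stage for shDNMT1, 15 in all. Both shDNMT1 populations were bulk and all shUHRF1 populations were clones, so shRNA and kind of population cannot be told apart. The counts were deposited in 3 tables, of which R1 and R2 shared 1, Cl.3 and Cl.6 shared another and Cl.9 had its own, so the table also separates Cl.9 from the other clones. No Baseline library of day 28 was among the samples. Protein depletion was not checked here.

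The libraries held between 317670080 and 593644411 reads at CpGs, with a median of 11 to 21 reads per CpG, and their autosomal mC was 71.8% to 76.6% at Baseline. At Knockdown it was 62.6% in Cl.3, 57.4% in Cl.6, 42.9% in Cl.9, 40.4% in R1 and 39.5% in R2. The size of the loss therefore differed between clones, with Cl.9 closest to the bulk populations. In the 12 windows a library had between 100 and 639 reads summed over the CpGs of a window. The Wilson 95% confidence interval of a window's mC was 1.08 to 7.05 points on either side. Neighbouring CpGs share reads and reads are not independent molecules, so these intervals cover counting error only and are too narrow for windows whose CpGs crowd together.

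DNMT1 copies methylation onto the new DNA strand after replication, and UHRF1 binds hemimethylated CpGs and brings DNMT1 to them through its ubiquitin ligase activity. When either protein is depleted, dividing cells dilute methylation from the genome. Loss over many divisions is best known from partially methylated domains, where CpGs that stand alone lose it most readily.

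The windows lay on 9 chromosomes and no 2 were closer than 7.858 Mb, so none formed a run of neighbouring windows. The introns of 8 genes held 1 window each (LINC01645, SRD5A3, CDKAL1, MLIP, SHOC1, PLEKHA5, SAMD4A and GREB1L). Exons held 2 of them, the long noncoding RNA CCDC26 and the unprocessed pseudogene ENSG00000257237. The remaining 2 were intergenic, 83.6 kb from SLC38A4 and 3.45 kb from HMGXB4, and are named after these nearest protein-coding genes. No window overlapped a protein-coding promoter (from 1 kb before to 100 bp after the 5′ end) or a UTR in GENCODE release 44, and among other baseline-methylated windows 1.57% overlapped such a promoter of a gene.

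In 9 of the 12 windows more than 50% of the reads, counted once at each CpG they cover, were at 1 run of closely spaced CpGs. The 30 bases with the most CpGs are printed below in hg38, plus strand, with each CpG in capitals, because close spacing of CpGs is what most of the windows shared. For 2 windows the most isolated CpG of the same window follows as a contrast. At Knockdown it was at 20% to 73.3% near SLC38A4 and at 29.6% to 81.25% near HMGXB4. Isolated CpGs of windows not shown this way varied. Examples are 21.7% to 91.7% in the pseudogene, 72.7% to 94.4% in GREB1L and 83.3% to 92.3% in SAMD4A. The stretches of GREB1L, near HMGXB4, PLEKHA5, CDKAL1 and the pseudogene follow the rule given with the methods, and the others were added after their values were seen.
GREB1L run (chr18:21333090-21333119): acaCGCGCGCGCGCGCGCGcacataCGgtc
near HMGXB4 run (chr22:35253595-35253624): ttttgtgCGCGCGCGCGCGCGCGtgtgtgt
near SLC38A4 run (chr12:46916050-46916079): CGCGCGCGCGCGtgCGcaCGCGCGcactCG
LINC01645 run (chr1:177425439-177425468): tgtgCGtgcatgCGCGCGCGCGCGCGtgtg
SRD5A3 run (chr4:55354815-55354844): tgtgCGCGCGtgCGtgCGCGCGtaCGcatg
CDKAL1 run (chr6:20862660-20862689): tgtgCGCGCGtgcatgCGCGCGtgCGcata
pseudogene ENSG00000257237 run (chr12:39058854-39058883): cacacaCGcaCGCGCGCGccagCGagaaag
MLIP run (chr6:54210137-54210166): tcacCGcacCGcacCGcacCGcacCGcacc
PLEKHA5 run (chr12:19230391-19230420): cCGggCGtCGcagagCGggggCGgtgctCG
near SLC38A4 isolated (chr12:46916341-46916370): ctaagaagcagaccCGcttcagataccaca
near HMGXB4 isolated (chr22:35253766-35253795): aggatttgaatcccCGgacccagctgtcca

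In 7 of these windows CG was repeated among TG and CA dinucleotides, and the longest stretch in which purines and pyrimidines alternated was 35 to 57 bases long. MLIP had a different repeat, with 5 CpGs at steps of 5 bases, and PLEKHA5 had a GC-rich stretch with no such repeat. Each printed stretch occurred once in hg38 on either strand, which does not hold for every stretch that is not printed. The count is of exact copies before bisulfite conversion, so it does not show how uniquely reads were placed. The depth of the SHOC1 window reached 2.12 times the library's median in 1 library.

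Taken by the longest run of CpGs at steps of exactly 2 bases (CGCG and so on), 5 of the 12 windows had 4 or more CpGs in a row, 41.7% against 0.213% of other baseline-methylated windows. Allowing steps of up to 10 bases, 9 windows (75%) had a run of 5 or more, against 4.83% of the others. The median of the longest such run was 7 CpGs in the 12 windows and 2 in the others. A stretch of at least 20 bases in which purines and pyrimidines alternate was present in 9 windows (75%) and in 4.86% of the others, with median lengths of the longest stretch of 39 and 9 bases. The 3 windows without one were MLIP, SHOC1 and PLEKHA5. Run lengths and alternating stretches were looked at after the sequences had been seen, and windows are not replicates, so these are shares without a test.

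The windows did not hold more CpGs than others, with a median of 11.5 against 14 in other baseline-methylated windows. PLEKHA5 was the exception with 41 CpGs and a GC content of 59.6%, against a median GC content of 41.3% over the 12. It also had the lowest relative depth, 0.55 times the library median. CpGs flanked by A or T on both sides (WCGW) made up a median of 8.71% of CpGs in the 12 windows and 20% in the others. The motif TGCCGC, searched on both strands, was in none of the 12 windows and in 11.3% of the others. None of the windows lay in the zinc finger, clustered protocadherin, olfactory receptor, HLA, HOX, imprinted or germline gene lists, which held 0.00674% to 1.05% of the other windows each.

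Windows kept within 0.15 became rarer with the depth of the genome-wide loss. In Cl.3 452488 baseline-methylated windows met the limit (69.3%), in Cl.6 179768 (27.5%) and in Cl.9 14001 (2.14%). In R1 there were 180 (0.0276%) and in R2 105 (0.0161%), so the bulk populations decided which windows remained. All 3 clones shared 12080 windows and both bulk populations shared 14, of which 12 also passed in every clone. These shares are those of the rule itself and nothing is read from them about the 12 windows.

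Values lay near the limit. The 4 windows just inside had largest moves of 14.4 (SHOC1), 14.5 (SAMD4A), 14.8 (SRD5A3) and 14.9 points (PLEKHA5). The 4 windows just outside moved by 15.1 to 15.3 points, and their longest runs at steps of up to 10 bases held 3, 3, 3 and 4 CpGs. The smallest largest move was 10.3 points, in the pseudogene, so no window kept all 5 populations within 10 points.

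**Figure D1:**
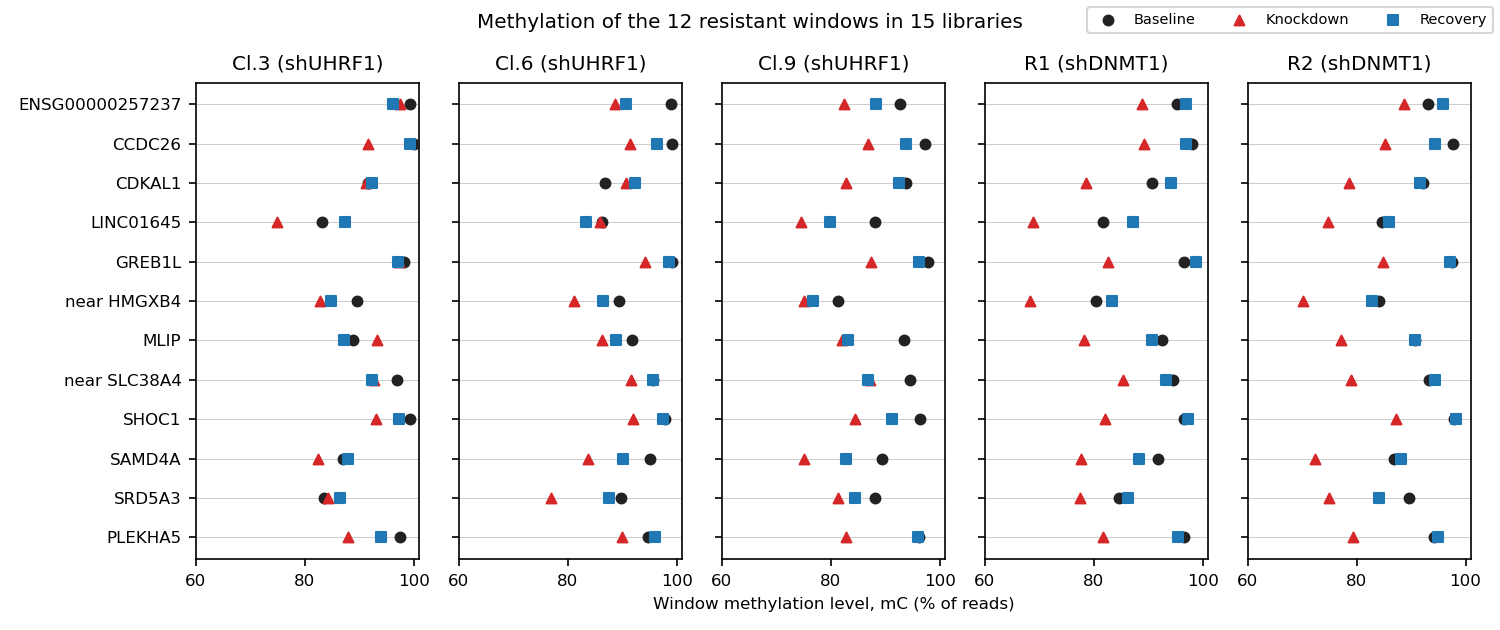
Methylation level (mC, percent of reads) of the 12 resistant windows, 1 panel per cell population, with Baseline as circles, Knockdown as triangles and Recovery as squares; windows are ordered from the smallest largest move (top) to the largest. Knockdown values sit at 68.3% or higher throughout, and only in Cl.3 and Cl.6 do some lie at or above their Baseline value.

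The pseudogene window, of an unprocessed pseudogene on chromosome 12, moved least. Its Baseline mC was 99.3% in Cl.3, 99.0% in Cl.6, 92.8% in Cl.9, 95.3% in R1 and 93.1% in R2. At Knockdown the levels were 97.5% in Cl.3, 88.7% in Cl.6, 82.5% in Cl.9, 89.0% in R1 and 88.7% in R2. Cl.9 moved most, and both bulk populations moved less than Cl.6 and Cl.9.

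CCDC26 is a long noncoding RNA gene, and its window had only 6 CpGs, of which at most 2 were within 10 bases of each other. Baseline mC there was 100% in Cl.3, 99.1% in Cl.6, 97.4% in Cl.9, 98.1% in R1 and 97.7% in R2. Knockdown mC was 91.6% in Cl.3, 91.5% in Cl.6, 86.8% in Cl.9, 89.2% in R1 and 85.2% in R2. All 5 Knockdown values lay below all 5 Baseline values. This window had an alternating stretch of 37 bases but no crowded CpGs.

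GREB1L, a paralogue of the estrogen-responsive gene GREB1 that is needed for kidney development, had the longest runs of CGCG together with the window near HMGXB4, 8 CpGs each. Its Baseline mC was 98.2% in Cl.3, 99.2% in Cl.6, 97.9% in Cl.9, 96.6% in R1 and 97.5% in R2. Knockdown mC was 97.3% in Cl.3, 94.2% in Cl.6, 87.4% in Cl.9, 82.7% in R1 and 84.8% in R2. Here the order of Knockdown levels followed the genome-wide loss of the clones, with R1 and R2 lowest.

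The window near SLC38A4, which encodes a neutral amino acid transporter, held 11 of its 12 CpGs within 30 bases. Baseline mC was 97.0% in Cl.3, 95.7% in Cl.6, 94.6% in Cl.9, 94.6% in R1 and 93.3% in R2. After knockdown the levels were 92.7% in Cl.3, 91.5% in Cl.6, 87.2% in Cl.9, 85.4% in R1 and 78.9% in R2. The single CpG outside the run fell to 64.3% in Cl.3, 73.3% in Cl.6, 20.0% in Cl.9, 35% in R1 and 50% in R2, on 14 to 28 reads.

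The window near HMGXB4, a gene for an HMG-box protein, started lower. Its Baseline mC was 89.6% in Cl.3, 89.3% in Cl.6, 81.3% in Cl.9, 80.4% in R1 and 84% in R2. At Knockdown it was 82.8% in Cl.3, 81.1% in Cl.6, 75.2% in Cl.9, 68.3% in R1 and 70.1% in R2. The CpGs of its run were 74.1% to 79.8% methylated at Baseline, below the other CpGs of the window (90.4% to 100%).

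PLEKHA5, which encodes a pleckstrin homology domain protein, was the CpG-rich exception. Baseline mC of this window was 97.5% in Cl.3, 94.7% in Cl.6, 96.2% in Cl.9, 96.6% in R1 and 94.3% in R2. Knockdown brought it to 87.9% in Cl.3, 89.9% in Cl.6, 82.8% in Cl.9, 81.8% in R1 and 79.3% in R2. Its longest run fell more than its remaining 34 CpGs in 4 of the 5 populations, with changes of -22.1 points against -13.5 points in R1 and of -10.2 points against -9.48 points in Cl.3 as the widest and narrowest gaps. Cl.6 was the exception, where the run was at 100% after knockdown and the rest at 87.0%.

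The other 6 windows were LINC01645, a long noncoding RNA gene, SRD5A3, which makes dolichol for protein glycosylation, CDKAL1, a tRNA-modifying enzyme, MLIP, a lamin-interacting protein of muscle, SHOC1, a meiotic crossover factor, and SAMD4A, an RNA-binding repressor of translation. Knockdown mC ranged from 68.9% to 85.8% in LINC01645 and from 74.9% to 84.2% in SRD5A3. It was 78.5% to 91.3% in CDKAL1, 77.2% to 93.2% in MLIP, 82.1% to 93.1% in SHOC1 and 72.4% to 83.8% in SAMD4A. Some windows were higher at Knockdown than at Baseline in a single clone, 2 of 12 in Cl.3 and 1 of 12 in Cl.6 (CDKAL1, 86.8% to 90.7%). Expression of these genes was not measured in these libraries.

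Over the 12 windows, mean mC moved from 92.9% to 89.1% in Cl.3, from 93.7% to 87.7% in Cl.6, from 92.5% to 81.8% in Cl.9, from 91.6% to 79.9% in R1 and from 91.8% to 79.3% in R2. Other baseline-methylated windows had Knockdown means of 81.9% in Cl.3, 75.6% in Cl.6, 60.5% in Cl.9, 52.8% in R1 and 51.8% in R2. For sets defined by the limit, the rule largely fixes the Knockdown means, so these means are a description. The 12068 windows that met the limit in the 3 clones but not in both bulk populations had means of 91.4%, 87.4% and 82.3% in the clones. In R1 and R2 these windows kept to the clones had means of 65.3% and 64.1%. A run of 4 or more CpGs at 2-base steps was present in 0.978% of them, in 7.60% of the windows kept within 0.20 but not 0.15 and in 0.213% of other baseline-methylated windows, so these sets lay between the 12 windows and the rest. For runs of 5 or more at steps of up to 10 bases the shares were 13.1%, 23.4% and 4.83%.

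The windows on either side did not share the small moves. In the 1 kb windows directly before the 12, Knockdown mC averaged 80.9 ± 10.3% in Cl.3, 69.9 ± 12% in Cl.6 and 58.4 ± 19.5% in Cl.9 (SD over 11 windows). In R1 and R2 it was 55.6 ± 11.2% and 50.5 ± 14.6%. Directly after them it was 78.5 ± 15.6% in Cl.3, 74.4 ± 14.3% in Cl.6, 55.2 ± 18.0% in Cl.9, 50 ± 14.1% in R1 and 51.9 ± 16.0% in R2 (SD over 12 windows). These flanking values are close to those of other baseline-methylated windows, and the flanking windows did not have to meet the Baseline minimum.

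**Figure D2:**
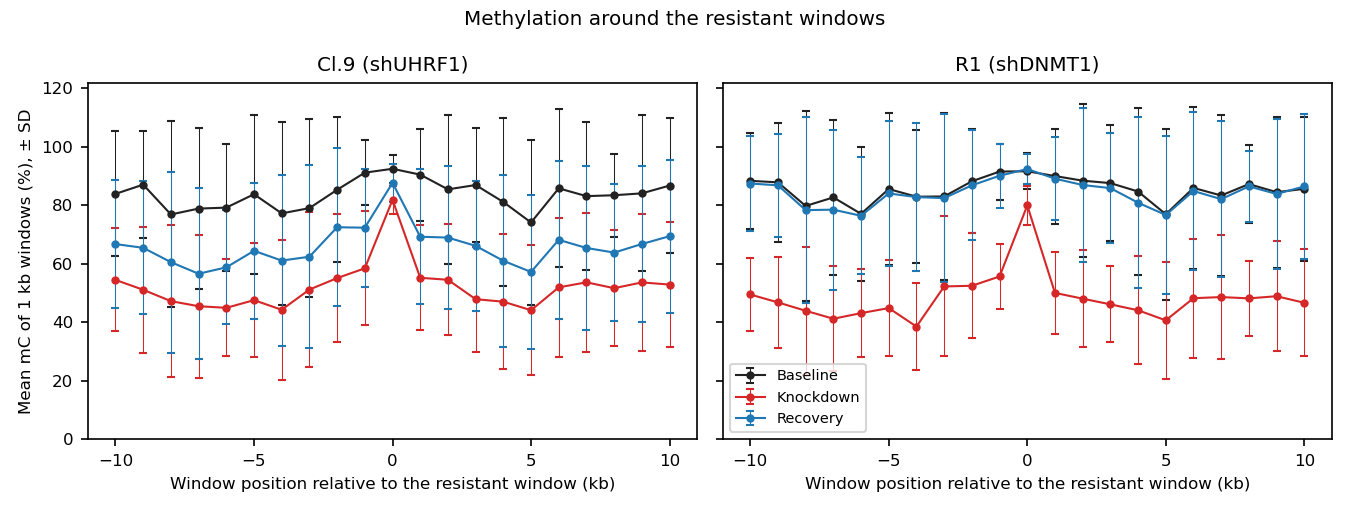
Mean mC of 1 kb windows from 10 kb before to 10 kb after the 12 resistant windows (position 0) in Cl.9 and R1, with error bars of 1 SD over windows. At Knockdown the resistant windows stand at 81.8% in Cl.9 and 79.9% in R1, above neighbours at 58.4% and 55.2% in Cl.9 and 55.6% and 50% in R1.

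Single CpGs showed where inside a window methylation was kept. The longest runs at steps of up to 10 bases held 77 of the 167 CpGs of the 12 windows. They held more than 50% of the reads summed over CpGs in 9 of the windows. From Baseline to Knockdown, mC of these runs changed by -3.11 ± 6.42 points in Cl.3, -1.61 ± 5.87 points in Cl.6 and -5.86 ± 4.50 points in Cl.9 (SD over 12 windows). In R1 and R2 the runs changed by -4.79 ± 6.67 and -5.89 ± 6.01 points. The other CpGs of the same windows changed by -9.22 ± 10.2 points in Cl.3, -13.8 ± 5.43 points in Cl.6, -22.1 ± 10.7 points in Cl.9, -26.4 ± 13.5 points in R1 and -27.0 ± 10.1 points in R2. The run changed by more positive or less negative amounts than the rest in 8, 12, 10, 10 and 11 of the 12 windows in Cl.3, Cl.6, Cl.9, R1 and R2. Since whole windows were chosen for a small change, this contrast within them is also a description.

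GREB1L is an example with a run of CGCG. At Knockdown its 9 CpGs in the run, which spans 24 bases, were methylated at 99.5% in Cl.3, 100% in Cl.6, 93.6% in Cl.9, 94.0% in R1 and 94.8% in R2. The 7 other CpGs were at 93.1% in Cl.3, 84.6% in Cl.6, 75.7% in Cl.9, 58.3% in R1 and 68.3% in R2. At Baseline both parts had been at 94.2% or more in every population.

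MLIP, with its CpGs at 5-base steps, had a wider gap between the changes of run and rest than GREB1L in all 5 populations. The run stood at 94.8% in Cl.3, 89.4% in Cl.6, 87.4% in Cl.9, 86.0% in R1 and 83.2% in R2 at Knockdown. Of its 4 remaining CpGs, 2 had no read in any library, and the other 2 were at 85.7% in Cl.3, 73.1% in Cl.6, 57.4% in Cl.9, 51.5% in R1 and 47.2% in R2.

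LINC01645 had a run of 8 CpGs at 93.8% in Cl.3, 95% in Cl.6, 90.5% in Cl.9, 83.1% in R1 and 89.4% in R2 after knockdown. One of its 3 other CpGs was unmethylated in every library, with 3 methylated reads of 387, which kept the Baseline mC of the window between 81.8% and 88.2%. SRD5A3 (2 of 362 reads) and PLEKHA5 (1 of 131 reads) each also held 1 such CpG. That of SRD5A3 lay inside its run and is counted there, although it had almost no methylation to lose. A read that is T at these positions can come from an unmethylated cytosine or from a T in the cells' own DNA, and these counts do not tell them apart.

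**Figure D3:**
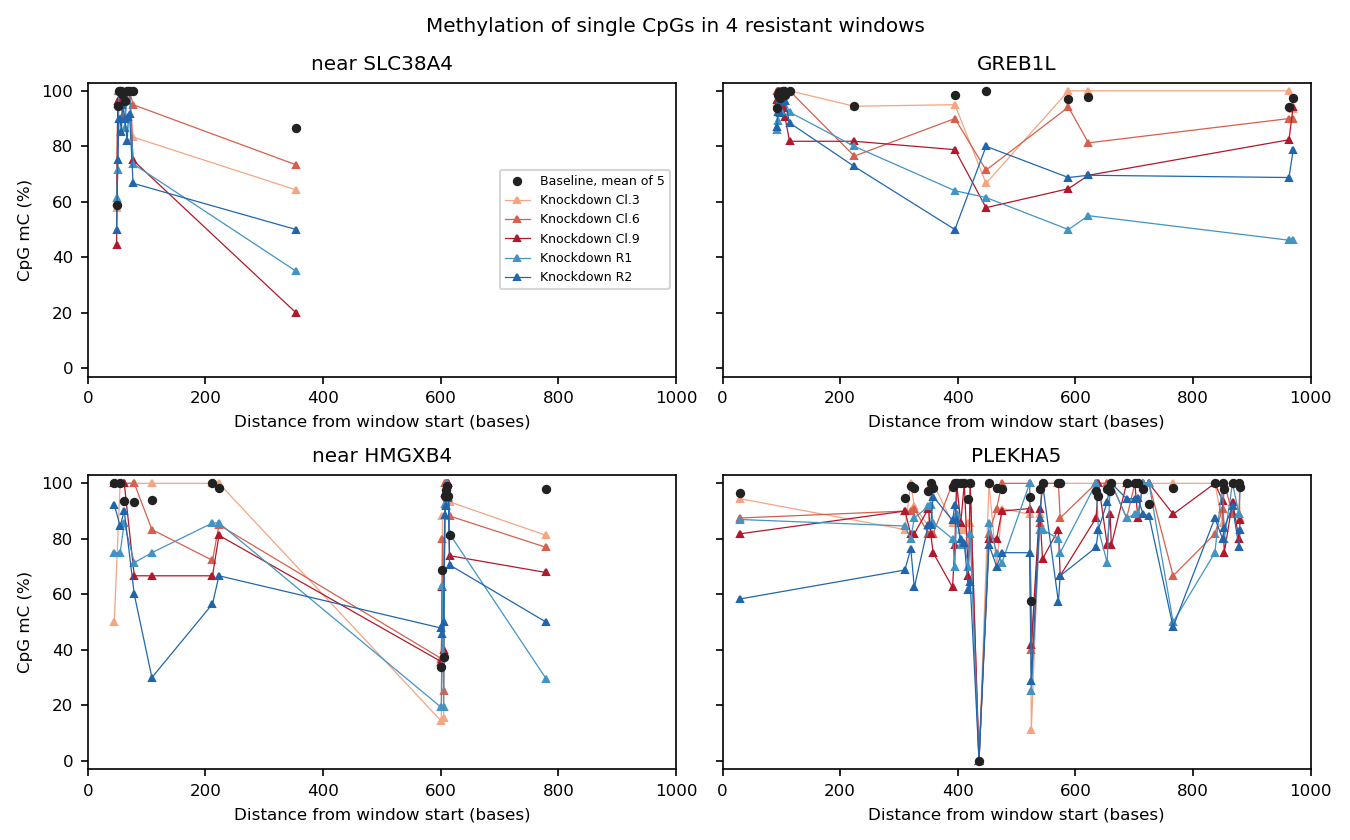
mC of single CpGs by distance from the window start in 4 resistant windows, with the Baseline mean of 5 populations as black circles and Knockdown of each population as coloured triangles joined by lines. In GREB1L and near SLC38A4 the crowded CpGs at the left stay high at Knockdown while the isolated CpGs fall, near HMGXB4 several CpGs of the run are already low at Baseline, and PLEKHA5 is high at most of its 41 CpGs, with the unmethylated one and a few others lower.

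Because every CpG weighs by its reads, a crowded run can dominate a window. CpGs no more than 10 bases apart were therefore also counted as 1 unit, with their mean methylated and mean total reads, so units still weighed by depth. With such units 1 window in the genome met the rule, the one in CCDC26. The largest moves of the other 11 then lay between 16.5 points (PLEKHA5) and 32.2 points (near HMGXB4). This alternative was added after the data had been seen.

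Runs in windows outside the 12 were then examined. Run and rest each needed at least 10 reads, summed over their CpGs, in every library. With that, 834 of the other baseline-methylated windows had a run of at least 4 CpGs at 2-base steps and at least 3 CpGs outside it. Their runs changed at Knockdown by -0.768 points in Cl.3, -3.33 points in Cl.6, -4.29 points in Cl.9, -15.0 points in R1 and -14.8 points in R2. The rest of the same windows changed by -11.9 points in Cl.3, -18.6 points in Cl.6, -31.0 points in Cl.9, -39.7 points in R1 and -41.0 points in R2. The run fell less in all 5 populations, by 20.8 ± 7.12 points (SD, n = 5). The comparison was chosen after the 12 windows had been seen and uses the same Knockdown and Baseline libraries, so it is given without a test. The run moved less than the rest in 92.7% to 99.0% of windows.

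In these 834 windows, runs kept within 15 points made up 95.9% in Cl.3, 93.4% in Cl.6, 94.5% in Cl.9, 59.6% in R1 and 60.4% in R2. For the remaining CpGs of the same windows the shares were 71.1%, 32.1% and 3.84% in the clones and 0.240% in both bulk populations. Run and rest both started at 80% or more in 589 of the windows, and in these the difference was 20.0 ± 6.68 points (SD, n = 5). Reads per CpG in the run relative to the rest changed little from Baseline to Knockdown, by median factors of 0.949 to 1.00 in the 5 populations. In the 12 windows the median factors were 0.933 in Cl.3, 0.872 in Cl.6, 1.02 in Cl.9, 1.04 in R1 and 1.17 in R2. This relative depth of the run fell in 7, 8, 6, 5 and 4 of the 12 windows in the same order. Window mC is weighted by reads, so such shifts enter the moves of whole windows.

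**Figure D4:**
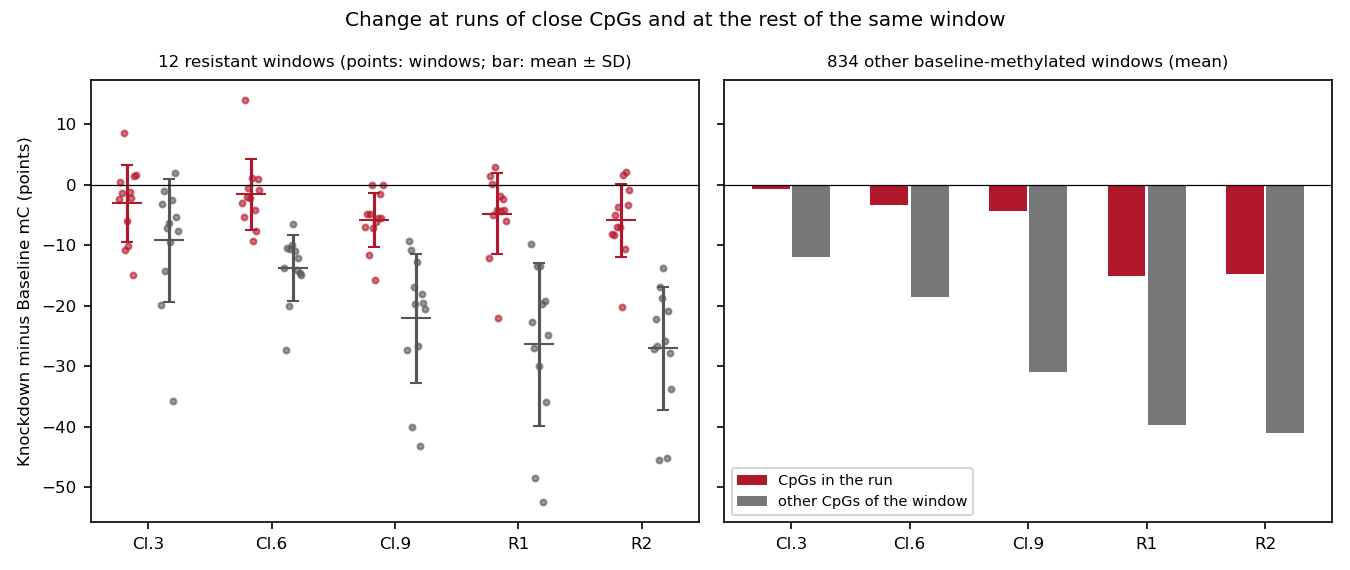
Knockdown minus Baseline mC (percentage points) at runs of crowded CpGs (red) and at the remaining CpGs of the same windows (grey) by population. Left, the 12 resistant windows as points with mean and SD; right, bars of the mean over 834 other windows, from -0.768 to -15.0 points in runs and from -11.9 to -41.0 points in the rest.

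The longest run also ordered the mean change of whole windows that were not among the 12. Windows without any CGCG (463437) changed on average by -13.1 points in Cl.3, -20.3 points in Cl.6, -33.9 points in Cl.9, -41.9 points in R1 and -43.0 points in R2. With a run of 6 or more CpGs (217 windows) the means were -8.49 points in Cl.3, -13.6 points in Cl.6, -23.0 points in Cl.9, -32.0 points in R1 and -33.1 points in R2. Mean Knockdown mC was not ordered so in every population. In Cl.3 it was 81.2%, 84.3% and 83.4% for longest runs of 1, 3 and 6 or more, and in R1 52.0%, 55.2% and 59.5%. The part of the Baseline level was not tested. The median number of CpGs per window was 12, 19, 36, 51, 26 and 22 in windows whose longest run held 1, 2, 3, 4, 5 and 6 or more CpGs. It thus rose with the run up to 4 CpGs and was lower again in the classes above, and the part of CpG number was not tested. Having a long run did not by itself bring a window under the limit, as 3 of 120 windows with 7 or more CpGs in a row (2.5%) were among the 12.

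**Figure D5:**
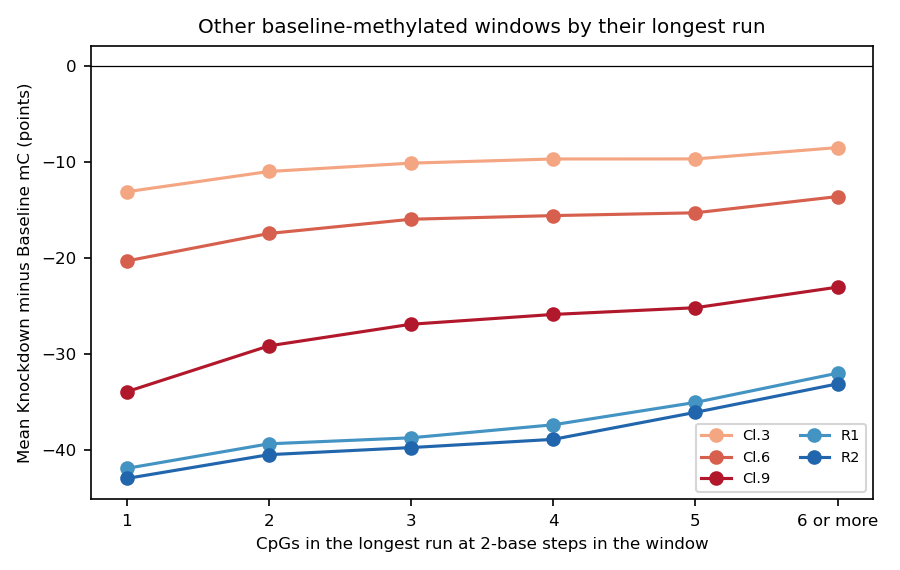
Mean Knockdown minus Baseline mC (percentage points) of other baseline-methylated windows against the number of CpGs in their longest run at 2-base steps, 1 line per population. The mean loss is smaller in classes with longer runs in all 5 populations, from -13.1 to -8.49 points in Cl.3 and from -43.0 to -33.1 points in R2.

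Recovery libraries took no part in choosing the windows, although Baseline did and enters the change. At Recovery the 12 windows averaged 91.8% in Cl.3, 92.0% in Cl.6, 87.7% in Cl.9, 92.4% in R1 and 91.5% in R2. Their change from Baseline was -1.09, -1.75 and -4.81 points in the clones, a mean of -2.55 ± 1.99 points (SD, n = 3, exact sign-flip permutation p = 0.25, the smallest possible). In the bulk populations it was 0.767 and -0.306 points, a mean of 0.231 ± 0.758 points (SD, n = 2, exact p = 1). The mean change in the clones minus that in the bulk populations was -2.78 points (exact permutation p = 0.2, the smallest possible). In Cl.9 all 12 windows were below Baseline, in Cl.6 10, in Cl.3 8 and in R1 and R2 5 each. How many other baseline-methylated windows were below Baseline was not counted, so nothing is read from these counts about the 12 windows.

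Other baseline-methylated windows were further from Baseline at Recovery, by -6.06 points in Cl.3, -8.10 points in Cl.6, -16.9 points in Cl.9, -1.16 points in R1 and -1.12 points in R2. The change of the 12 windows was less negative in all 5 populations, by 5.23 ± 4.43 points (SD, n = 5). With reads pooled over windows the mean was 5.18 points, and its sign was then not shared by all 5. The windows had been chosen for a small loss from the same Baseline, which largely sets this direction, so no test is given for it. The difference was 4.97 points in Cl.3, 6.36 points in Cl.6, 12.1 points in Cl.9, 1.92 points in R1 and 0.818 points in R2. In level, the 12 windows stood 3.49, 5.00 and 11.5 points above other windows at Recovery in the clones, and their level relative to those windows was -0.438 and -1.38 points in R1 and R2.

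Each window was also tested in a fit over all 1089323 windows with enough CpGs and reads. Baseline and Knockdown libraries, which the rule used, both enter this fit and its alternatives, the latter through the spread and the population terms. The p-values of the 12 windows are therefore not free of that choice. With edgeR's quasi-likelihood test and the population as a block, 90.9% of all windows were lower at Recovery than at Baseline in the shUHRF1 clones (Benjamini-Hochberg adjusted p under 0.05). In the other direction 0.00211% of all windows were called higher. A negative estimate was found in 11 of the 12 windows, and in at least the 90.9% of all windows called lower. Of the 12 windows, 3 were called lower and 0 higher. These were the pseudogene (log2 odds change -1.504, adjusted p = 0.00735), the window near SLC38A4 (-1.07, adjusted p = 0.0130) and CCDC26 (-1.47, adjusted p = 0.0457). CDKAL1 alone had a positive estimate, 0.23 (adjusted p = 0.55).

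The values behind these calls were modest. The pseudogene went from 99.3%, 99.0% and 92.8% at Baseline to 96.2%, 90.7% and 88.2% at Recovery in Cl.3, Cl.6 and Cl.9. Near SLC38A4 the Recovery values were 92.3%, 95.7% and 86.9%, with Cl.6 at its Baseline level of 95.7%. In CCDC26 they were 99.3%, 96.4% and 93.8%. In GREB1L, which was not called, Recovery mC was 97.2% in Cl.3, 98.5% in Cl.6, 96.2% in Cl.9, 98.7% in R1 and 97.1% in R2.

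The calls depended on the pairing of libraries. Without the population block 53.9% of all windows and none of the 12 were called lower in the clones (adjusted p = 0.0902, 0.109 and 0.145 for the pseudogene, the window near SLC38A4 and CCDC26), and 0 of the 12 passed an unadjusted p under 0.05 there, against 713318 of all 1089323 windows called lower at that threshold. limma called 87.4% of all windows and 4 of the 12, adding SHOC1. The number of the 12 called ranged from 1 to 5 when a population was left out. It was 5 without Cl.3 (93.1% of all windows), 1 without Cl.6 (near SLC38A4, 81.9% of all windows), 1 without Cl.9 (the pseudogene, 66.9%) and 2 without R1 or without R2 (87.4% in each), where CCDC26 was lost. In the shDNMT1 populations none of the 12 was called in either direction by edgeR or limma, and at an unadjusted p under 0.05 neither tool passed any of the 12. At that threshold edgeR passed 34809 windows as lower and 1704 as higher and limma 50417 and 3837, of 1089323. In edgeR 9.18e-05% of all windows were called lower in these populations.

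The Recovery change differed between the shRNAs in many windows, and 39.6% of all windows and 1 of the 12 were called lower in shUHRF1. A higher value in shUHRF1 was called in 0.0033% of all windows and in 0 of the 12. In the pseudogene window the change in the clones minus that in the bulk populations was -2.23 on the log2 odds scale (edgeR quasi-likelihood test, adjusted p = 0.0345). Recovery mC there was 96.9% and 95.8% in R1 and R2, above their Baseline, while all 3 clones were below theirs. This call was lost without Cl.6 (adjusted p = 0.104), without R1 (0.160), without R2 (0.230) and without the block (0.343), and limma kept it (adjusted p = 0.0140). Among all windows the calls of either direction fell from 431224 to 13988 without R1 and to 8299 without R2, and were 682705 without Cl.3, 284343 without Cl.6 and 158221 without Cl.9.

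Domains called by the authors in each library gave the same windows a wider setting. A window counts as held by a domain, or in it, where any part of the window overlapped it. Highly methylated domains held 11 of the 12 windows at Baseline in every population, where 93.7% to 96.6% of other baseline-methylated windows overlapped one. At Knockdown 7 windows in Cl.3 and 3 in Cl.6 were still in such a domain (61.1% and 20.2% of the others), and none in Cl.9, R1 or R2 (0.00153%, 0.000153% and 0.000306% of the others). At Recovery the numbers were 11, 10 and 5 in the clones and 11 in each bulk population, beside 88.0%, 84.1% and 38.6% of the others in the clones and 91.8% and 91.4% in R1 and R2. Partially methylated domains held 1, 5 and 11 of the 12 windows at Knockdown in Cl.3, Cl.6 and Cl.9, beside 28.3%, 63.3% and 95.9% of the others. In R1 they held 5 windows and in R2 6, beside 81.8% and 81.6% of the others. Low-methylated regions held none of the 12 at Knockdown in any population and 1.99% to 45.8% of the others, and unmethylated regions held 0 to 2 of the 12 and 0.764% to 20.8% of the others. The windows overlapping unmethylated regions were LINC01645 in Cl.3, Cl.9, R1 and R2 and the one near HMGXB4 in R1 and R2. Knockdown mC of these whole windows was 68.3% to 74.8% there, so they were not unmethylated as windows. Domains at Knockdown were called from the libraries by which the 12 windows were chosen. Their shares at Knockdown are thus largely set by the rule and are a description.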

How the data were processed

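Whole-genome bisulfite sequencing data of 15 HCT116 libraries were used. Per the study's methods, reads were aligned to the human genome (hg38 per the labels) with the Meth10X pipeline and domains were called with MethylSeekR, and the authors deposited raw counts of methylated reads and of all reads per CpG, with both strands in 1 row. How duplicates and sequence variants were treated is not given in the sources used here. The deposited domain lists hold coordinates and a class per library. The submitters' processing notes name bedtools 2.25.0. All 27852739 autosomal rows were CG in hg38.

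Counts were summed over 1 kb windows in Python 3.11.15 (NumPy 2.4.6). Windows were tested with edgeR 4.0.16 (glmQLFit and glmQLFTest, methylation design matrix) under R 4.3.3, with a common dispersion and the population as block, and limma 3.58.1 (pseudocount of 1) was an alternative. The block rests on the clone or population named in the labels, whose stages were grown in parallel. The deviation of a population at Baseline correlated with its deviation at later stages with r of 0.423 to 0.573 in the clones and of -9.25e-05 and 0.00729 in the bulk populations. No pair of libraries of the same shRNA and stage held copied counts (chi-square per window 1.24 or more). R1 and R2 gave 1.24 at Baseline, 2.28 at Knockdown and 1.30 at Recovery, and pairs of clones gave 3.30 or more. The check cannot tell separate cultures from libraries of the same DNA. Means over windows were compared by exact permutation tests over populations, and nothing shows that populations of an shRNA were independent beyond their names.

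The 12 windows and all lists were chosen with earlier results of these data known. The naming rule took neighbouring runs, 8 windows by smallest largest move, 8 by CpG number, 4 on each side of the limit, those of highest depth or in a gene list, and the largest Recovery changes, which named all 12. Its sequences came from the first 3 windows by move and by CpG number, outside chromosome 8, and 1 stretch is not reported here. The window rule, the run search and the edgeR fit were first tested on simulated data with known answers. The rule found all 200 planted windows and no other, but at a gap far wider than that around the limit here. The edgeR fit called 65% of 200 planted windows, with 6 false calls in 20000 windows. Its simulation held no differences between populations. Alternatives varied the limits of the rule, the weighting of reads, the populations included and the test. Repeat masking was not used here.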

Additional observations from a re-analysis of the deposited data

Results flagged for a closer look

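In the pseudogene ENSG00000257237 window all 3 shUHRF1 clones were below Baseline at Recovery and both shDNMT1 populations were above it. The mean change differed by -7.49 points between the shRNAs, and the edgeR test of the difference gave -2.23 on the log2 odds scale (adjusted p = 0.0345). Baseline and Knockdown values, which the rule used in choosing the windows, enter the fit behind this test. The call was lost without Cl.6 (adjusted p = 0.104), without R1 (0.160), without R2 (0.230) and without the population block (0.343), and the adjusted p was 0.0140 to 0.343 over the alternatives that held this window (with 200 reads it was not tested). The same opposite directions appeared in SHOC1, where the mean changes differed by -3.03 points. The edgeR test of this difference did not pass (adjusted p = 0.213).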

How the results depend on the processing

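The number of windows depended strongly on the limits. It was 0 at a largest move of 0.10, 183 at 0.20, 52 with at least 50 reads and 2 with at least 200 reads. With CpGs no more than 10 bases apart as 1 unit, an alternative chosen after seeing the data, it was 1. A Baseline minimum of 0.85, 10 CpGs, the depth limits and windows shifted by 500 bases gave 8 to 12, although only 2 of the 12 overlapped a shifted window that met the rule. Leaving out 1 population gave 12 to 93 windows, with 66 without R1 and 93 without R2.

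The mean Recovery change in the shDNMT1 populations was small and changed sign, to -0.146 points with pooled reads, to -0.0158 as a difference of logits and to -0.306 points without R1 (0.767 without R2). With 200 reads, which left 2 windows, the shUHRF1 change was -0.949 points and the difference between shRNAs -1.24 points, less than 50% of the reported -2.55 and -2.78 points. The other Recovery means kept their direction under every alternative run. The shUHRF1 change was -3.28 to -1.42 points and the difference between shRNAs -3.51 to -1.65 points when 1 population was left out. The lead of the 12 windows over others was 3.52 to 6.33 points when 1 population was left out and 5.43 points against others weighted to the same CpG numbers.

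Without the replicate block 587372 windows were lower in the clones against 989664 with it, 0 differed between the shRNAs (161606 lower and 23 higher at an unadjusted p under 0.05) and 0 were lower in the shDNMT1 populations (4486 at an unadjusted p under 0.05). Among the 652812 baseline-methylated windows alone these counts were 612132 (93.8%, against 90.9% of all windows) for the clones and 0 for shDNMT1 (30363 at an unadjusted p under 0.05), with 200 reads, of 274581 windows tested, 254191 (92.6%) for the clones and 144711 (52.7%, against 39.6%) for the difference, and limma gave 0 for shDNMT1 (50417 at an unadjusted p under 0.05). Leaving out 1 population gave 729037 to 1014369 windows for the clones, 0 to 1 for shDNMT1 and 8299 to 682705 for the difference. A largest move of 0.10 left no window, so its Recovery values could not be given.

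Depth limits what the windows show. The Wilson 95% interval of a window's mC reached 7.05 points on either side, more than separated the windows just inside the limit from those just outside, the single CpG outside the run near SLC38A4 had 14 to 28 reads at Knockdown, and with 3 and 2 populations none of the exact tests could reach 0.05. The shRNA cannot be told apart from clone or bulk. Whether reads of repeats were placed elsewhere was not tested.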
